A study of Mus musculus with 4 samples.

Results

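The naive pluripotency network of mouse ESCs was followed through 10 transcription factor genes: *Pou5f1*, *Sox2*, *Nanog*, *Esrrb*, *Tfcp2l1*, *Klf2*, *Klf4*, *Klf5*, *Tbx3* and *Prdm14*. They were taken by gene name from the RNA-Seq tables of a study of histone demethylation. Of the 10 genes, 9 have a value among the 9936 gene names of the tables, and *Tbx3* was not analysed here. The cells were female LF2 ESCs of the 129/J strain, moved off feeder cells before treatment, so each group is the same line. They received 10 μM GSK-J4, a prodrug that enters cells and blocks histone demethylases of the JmjC type, or its vehicle DMSO. Each was given with 50 μg/ml L-ascorbic acid (AA), a cofactor of the same enzyme class, or with PBS. RNA was taken after 24 hr. The 4 conditions PBS+DMSO, PBS+GSK-J4, AA+DMSO and AA+GSK-J4 hold 1 library each. No value here therefore has a replicate, and no difference between libraries was tested. Values are FPKM, a fragment count scaled by transcript length and by library depth, and can be compared between genes.

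In naive ESCs, Oct4 (the product of *Pou5f1*) and Sox2 bind DNA as a pair and keep the cells undifferentiated, and Nanog stabilizes that state. Esrrb, Tfcp2l1 and the Krüppel-like factors Klf2, Klf4 and Klf5 form an outer layer. In this layer Klf4 and Tfcp2l1 are reached by LIF and Stat3 signalling and Esrrb by inhibition of GSK3. Prdm14 holds back FGF signalling and DNA methylation.

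The promoters of *Nanog*, *Pou5f1* and *Tfcp2l1* are shown because *Nanog* and *Pou5f1* had almost the same profile over the 4 libraries and *Tfcp2l1* had the profile least like other genes. The sequences are from RefSeq on GRCm38.p6, all on the plus strand, and end at the base before the gene in the GENCODE M21 annotation. Capitals mark 2 searched motifs on either strand. One is TTTGCAT followed after 1 base by ACAA, the letters of an Oct4 and Sox2 pair, and the other is GGGNGTGG, the letters of a Klf-type site.
Nanog (chr6:122707239-122707488): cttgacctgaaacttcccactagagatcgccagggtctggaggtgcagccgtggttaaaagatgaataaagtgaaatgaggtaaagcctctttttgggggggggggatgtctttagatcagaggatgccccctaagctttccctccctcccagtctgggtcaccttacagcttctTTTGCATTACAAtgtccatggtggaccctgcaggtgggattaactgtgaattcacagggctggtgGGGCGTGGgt
Pou5f1 (chr17:35505782-35506017): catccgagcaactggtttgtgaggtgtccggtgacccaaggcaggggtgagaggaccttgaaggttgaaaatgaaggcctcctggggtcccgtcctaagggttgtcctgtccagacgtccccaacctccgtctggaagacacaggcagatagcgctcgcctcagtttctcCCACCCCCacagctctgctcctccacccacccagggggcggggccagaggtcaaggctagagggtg
Tfcp2l1 (chr1:118627695-118627944): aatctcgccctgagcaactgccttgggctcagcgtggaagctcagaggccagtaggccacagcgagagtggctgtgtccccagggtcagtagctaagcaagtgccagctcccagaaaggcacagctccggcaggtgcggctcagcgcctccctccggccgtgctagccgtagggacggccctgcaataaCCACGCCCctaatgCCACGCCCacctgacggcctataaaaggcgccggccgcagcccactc

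The Oct4 and Sox2 pair lies 75 to 64 bases upstream of the first of the 2 *Nanog* start sites in RefSeq. It is present in 11 of the 32851 searched windows of 250 bases before a start site, or 0.0335%, and 2 of the 11 are the overlapping windows of these *Nanog* start sites. Of the 7 genes of the network with a promoter in that table, *Nanog* alone holds it. *Nanog* also holds a Klf-type match 10 to 3 bases upstream. *Pou5f1* has 1 such match 80 to 73 bases upstream of its RefSeq start site, which lies 14 bases past the end of the printed stretch, and *Tfcp2l1* has 2, at 61 to 54 and at 47 to 40 bases upstream, all on the minus strand. Klf-type matches are found in 15.9% of all windows and in 3 of the 7 genes. TTTGCAT alone is in 4.12% of windows, and beside *Nanog* it is found in *Sox2*, 99 to 93 bases upstream. The octamer ATGCAAAT and the Esrrb-type letters CAAGGTCA are in 1.6% and 1.33% of windows and in none of the 7 genes within these bases. These matches describe the letters of the windows and were not tied to binding.

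In vehicle-treated cells the levels spanned a wide range. *Pou5f1*, at 867 FPKM in PBS+DMSO, was by far the highest, followed by *Sox2* at 223, *Nanog* at 162 and *Esrrb* at 129. *Klf5* (80.2), *Klf2* (71.6) and *Klf4* (55.2) came next. *Tfcp2l1* at 26.6 and *Prdm14* at 8.77 FPKM were the lowest. The order was the same in AA+DMSO. In both GSK-J4 libraries it differed in 1 place, where *Esrrb* stood above *Nanog*. All 9 genes were above an FPKM of 1 in every library, so none entered through a single condition. Without replicates, it is not known which neighbours in this order differ beyond their spread.

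**Figure D1:**
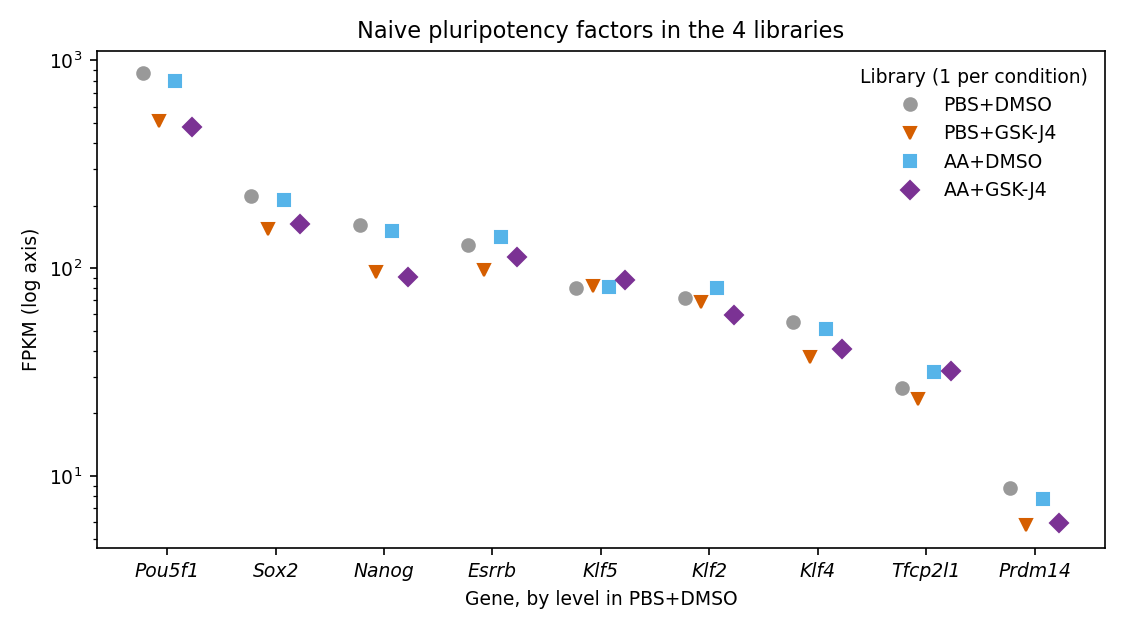
FPKM of the 9 factors on a log axis, 1 point per library, with the genes ordered by their level in PBS+DMSO. *Pou5f1* lies at 479.7 FPKM or above in every library and *Prdm14* below 9, and the GSK-J4 points sit below the DMSO points for most genes but not for *Klf5*.

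GSK-J4 was given to ask how blocking H3K27 demethylation affects transcription in ESCs. Loci are given on mm10 as deposited, and in the GENCODE M21 annotation each of the 9 overlaps the protein-coding gene of its name. *Pou5f1*, on chromosome 17 from 35505698 to 35511011, was at 867 FPKM with vehicle and 510 with GSK-J4 in PBS, and at 799.9 and 479.7 in the same order in AA. The GSK-J4 libraries thus held 58.9% and 60.0% of the level in their vehicle libraries. *Nanog* (chromosome 6, 122707516 to 122743526) was at 162 and 95.7 FPKM without AA and at 151 and 90.9 with AA, which is 59.2% and 60.2% of vehicle. *Nanog* and *Pou5f1* thus stood at nearly the same share of vehicle in both comparisons. *Sox2* (chromosome 3, 34649867 to 34652464) was at 223 and 155 FPKM without AA and at 214 and 163 with AA, or 69.5% and 76.4% of vehicle. Both GSK-J4 libraries were below both DMSO libraries for all 3 genes.

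Overlapping genes may limit these values. The deposited *Nanog* locus overlaps *Slc2a3*, a glucose transporter gene on the other strand, which was higher than *Nanog* in every library (294 and 320 FPKM with vehicle and with GSK-J4 in PBS, 252 and 256 in AA). *Sox2* lies inside the noncoding gene *Sox2ot*, and *Pou5f1* overlaps the antisense gene *Gm19553*. The *Tfcp2l1* locus also contains 3 short noncoding or pseudogene entries. In the GENCODE M21 annotation *Nanog* ends at 122714633 and *Slc2a3* begins at 122727809, so only the deposited *Nanog* locus reaches *Slc2a3*. The library kit is not described as keeping the strand. Reads from bases shared by genes on opposite strands therefore cannot be told apart. How many such bases lie in exons was not examined. *Nanog* and *Pou5f1* also have near-identical pseudogene copies, and how reads shared with them were counted is not given in the sources used here.

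Among the outer factors the values ranged from below to above vehicle. *Esrrb* (chromosome 12, 86361535 to 86521672), an orphan nuclear receptor, was at 129 and 97.8 FPKM without AA and at 142 and 114 with AA, or 75.6% and 80.2% of vehicle. *Klf4* (chromosome 4, 55527136 to 55532370) was at 55.2 and 37.4 FPKM without AA and at 51.1 and 40.7 with AA, which is 67.8% and 79.8%. *Klf2* (chromosome 8, 72318923 to 72321852) was at 71.6 and 68.6 FPKM without AA but at 80.2 and 59.4 with AA, or 95.9% and 74.0% of vehicle. *Klf4* and *Klf2* therefore exchanged places between the comparisons, *Klf4* being the further below vehicle without AA and *Klf2* with AA. *Klf5* (chromosome 14, 99298625 to 99315118) was at 80.2 and 82.1 FPKM without AA and at 81.2 and 87.4 with AA, or 102% and 108% of vehicle. At the deposited scaling it was the single factor above vehicle in both comparisons. *Tfcp2l1* (chromosome 1, 118627951 to 118685177), a grainyhead-type factor, was at 26.6 and 23.5 FPKM without AA and at 31.8 and 32.0 with AA, or 88.1% and 101% of vehicle.

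*Prdm14* (chromosome 1, 13113202 to 13128074) was at 8.77 and 5.80 FPKM without AA and at 7.77 and 5.93 with AA, or 66.1% and 76.4% of vehicle. Both GSK-J4 libraries were below both DMSO libraries. *Klf4*, *Esrrb* and *Klf2* were likewise below both DMSO libraries in both GSK-J4 libraries. For *Tfcp2l1* and *Klf5* the DMSO and GSK-J4 libraries overlapped or were reversed.

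On the log2 scale, with 1 added to each FPKM, 8 of the 9 factors were lower with GSK-J4 without AA and 7 of 9 with AA. Of all genes that reached an FPKM of 1 in at least 1 of the libraries compared, 63.0% and 62.2% were lower in the same comparisons. None of the 9 was at least 2-fold lower or higher. At a mark of 1.5-fold, *Pou5f1* and *Nanog* were lower in both comparisons, 2 of the 9 factors, against 19.3% and 17.8% of all genes. At least 2-fold lower values were found for 3.50% and 3.38% of all genes. Lower genes made up 41.4% and 45.0% of all genes that differed at least 2-fold, and 10.7% and 13.7% once every library was scaled to the same total FPKM. The median log2 ratio over the factors was -0.52 without AA, with a range from -0.76 to 0.03, and -0.34 with AA, with a range from -0.74 to 0.11. The medians over all genes were -0.17 for 9196 genes and -0.16 for 9139 genes. Scaling to the same total moved these medians to 0.16 and 0.14, and then 6 and 5 of the 9 factors were lower, against 36.6% and 37.9% of all genes. Under that scaling *Klf2* (0.32) and *Tfcp2l1* (0.20) were above vehicle without AA, *Tfcp2l1* also with AA (0.33), and *Klf4* (0.01) and *Esrrb* (0.02) were just above it with AA. *Pou5f1*, *Nanog*, *Sox2* and *Prdm14* were below vehicle, and *Klf5* above it, in both comparisons under every scaling tried.

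The log2 ratio varied with the expression level over all genes, so each factor was also set beside the 300 genes nearest to it in mean expression. *Pou5f1* had a log2 ratio of -0.76 without AA, where its nearest genes had a median of -0.58 and an SD of 0.45. With AA it had -0.74, beside -0.54 and an SD of 0.44. *Nanog* had -0.75 and -0.73, beside medians of -0.62 and -0.56. *Klf4* was 0.10 below its nearest genes without AA, at -0.55, and 0.08 above them with AA, at -0.32. *Sox2* (-0.52 and -0.39), *Esrrb* (-0.40 and -0.32), *Tfcp2l1* (-0.18 and 0.01) and *Klf2* (-0.06 and -0.43) were above the median of their nearest genes in both comparisons.

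*Klf5* and *Prdm14* stood at the ends. *Klf5* had log2 ratios of 0.03 and 0.11, while its nearest genes had medians of -0.60 and -0.55, and 265 and 271 of the 300 were below it. *Klf2* was close to this without AA, above 261 of its nearest genes, but above 178 with AA. *Tfcp2l1* was above 204 without AA and 257 with AA. *Prdm14* had ratios of -0.52 and -0.34, while its nearest genes had medians of -0.09 and -0.06, and 31 and 74 of the 300 were below it. It was the furthest below its nearest genes of the 9 factors, by 0.43 without AA and 0.28 with AA. With AA this order depended on the setting. Beside the 100 nearest genes *Pou5f1* was at -0.40 and *Prdm14* at -0.27 from their medians. With a pseudocount of 5 they were at -0.20 and -0.19. Each factor was within the 5th to 95th percentile of its nearest genes in both comparisons. Over the factors, the median difference from the nearest genes was 0.13 without AA and 0.10 with AA, so the median factor lay slightly above genes of similar expression. Of the 9 factors, 4 were below the median of their nearest genes without AA and 3 with AA. In these bulk libraries, fewer cells expressing a factor and less of its RNA per cell cannot be told apart.

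**Figure D2:**
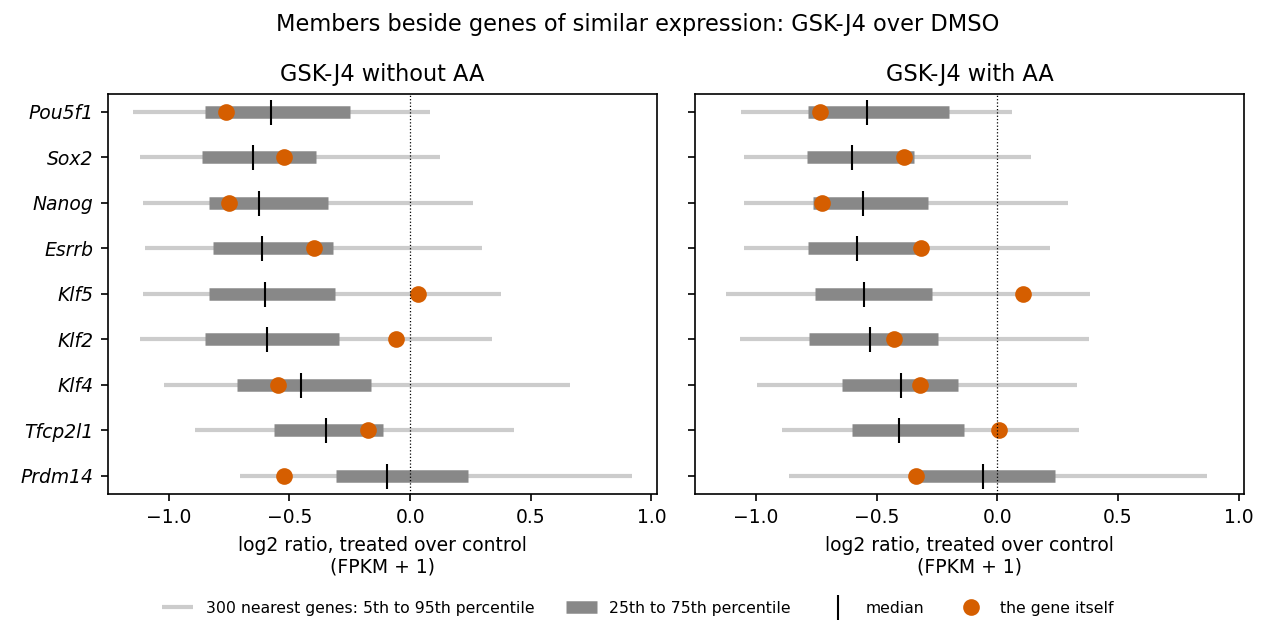
log2 ratio of GSK-J4 over DMSO for each factor (orange points) without AA and with AA, beside the 300 genes nearest in expression (grey bars for percentiles, black tick for the median). *Klf5* lies to the right of the grey quartile bar in both panels and *Prdm14* lies left of its tick, with values of 0.03 and -0.52 without AA.

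Ratios between factors within a library are the same whatever scaling is used between libraries. The ratio of *Nanog* to *Pou5f1* was 0.187 with vehicle and 0.188 with GSK-J4 in PBS, and 0.189 with both vehicle and GSK-J4 in AA. It was nearly the same in the 4 libraries, while both genes were lower in the GSK-J4 libraries. The ratio of *Pou5f1* to *Sox2* was 3.88 and 3.74 in the DMSO libraries without and with AA, and 3.29 and 2.93 in the GSK-J4 libraries. *Nanog* exceeded *Esrrb* 1.25-fold without AA and 1.07-fold with AA in DMSO, while in GSK-J4 the ratios were 0.978 and 0.800. *Nanog* exceeded *Klf5* 2.02-fold and 1.86-fold in the DMSO libraries and 1.17-fold and 1.04-fold in the GSK-J4 libraries. *Sox2* to *Klf4* ranged from 4.01 to 4.19 over the 4 libraries, a second steady ratio. The balance among the factors thus differed between the DMSO and GSK-J4 libraries in both media, with less *Nanog* and *Pou5f1* relative to *Sox2*, *Esrrb* and *Klf5*. The 9 factors together made up 0.450% and 0.455% of all FPKM in the DMSO libraries, and 0.390% and 0.396% in the GSK-J4 libraries. *Pou5f1* weighs most in this share, with 867 of 1623 FPKM in PBS+DMSO. The genes nearest to *Pou5f1* in expression were also lower with GSK-J4, with median log2 ratios of -0.58 and -0.54.

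AA is known to raise the activity of JmjC demethylases. For AA against PBS, libraries of both tables are set side by side, and the sources used here do not state whether the tables were scaled together. No factor differed at least 2-fold between AA and PBS. Such differences in either direction were found for 1.30% of 8843 genes in DMSO and 1.11% of 9180 genes in GSK-J4. In DMSO, 5 of 9 factors were lower with AA, against 62.4% of all genes, and in GSK-J4 3 of 9 were lower, against 55.4% of all genes. At the same total FPKM, 4 of 9 were lower in DMSO, with *Sox2* at 0.01, against 44.3% of all genes. The comparisons with GSK-J4 above use the same 4 libraries.

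*Tfcp2l1* was the factor with the highest ratio of AA to PBS. Its level was 119% of PBS in DMSO (26.6 and 31.8 FPKM) and 136% in GSK-J4 (23.5 and 32.0 FPKM). Its log2 ratios of 0.25 and 0.43 exceeded those of 292 and 296 of its 300 nearest genes, which had medians of -0.04 and -0.00 and SDs of 0.14 and 0.16. *Esrrb* was at 110% and 116% of PBS, log2 ratios of 0.13 and 0.21, and exceeded 290 and 289 of its nearest genes. *Klf2* was at 112% of PBS in DMSO and at 86.5% in GSK-J4, log2 ratios of 0.16 and -0.21. It was above 294 of its 300 nearest genes in DMSO and above 17 of them in GSK-J4. *Tfcp2l1* and *Esrrb* were above the 95th percentile of their nearest genes in both settings, and *Klf2* in DMSO. In GSK-J4 *Klf2* was just inside the 5th percentile.

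The other factors were within the 5th to 95th percentile of their nearest genes in both settings. *Pou5f1* was at 92.3% and 94.0% of PBS and *Nanog* at 93.5% and 95%, log2 ratios between -0.12 and -0.07. *Sox2* was at 95.9% and 105% and *Klf4* at 92.5% and 109%. *Klf5* was at 101% and 106% of PBS. In GSK-J4, *Sox2*, *Klf4* and *Klf5* were above 251, 263 and 253 of their 300 nearest genes. In DMSO they were above 185, 104 and 239. *Prdm14* was at 88.6% of PBS in DMSO and 102% in GSK-J4, log2 ratios of -0.16 and 0.03, beside an SD of 0.23 and 0.24 among its nearest genes.

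**Figure D3:**
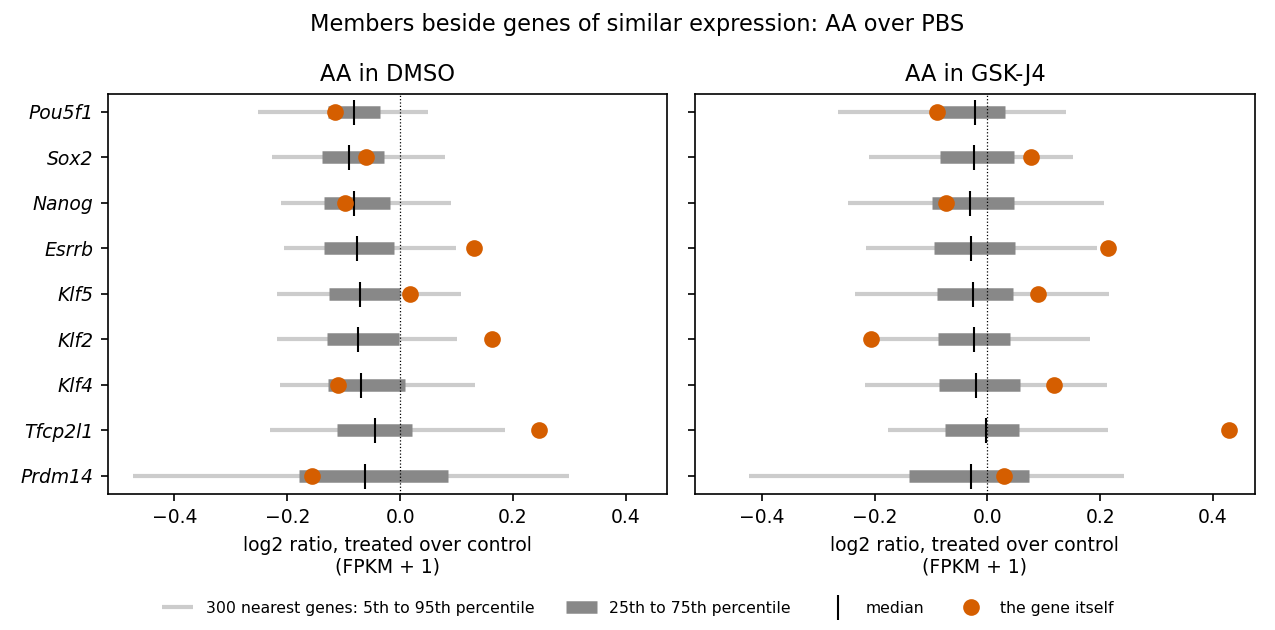
log2 ratio of AA over PBS for each factor (orange points) in DMSO and in GSK-J4, beside the 300 genes nearest in expression (grey bars for percentiles, black tick for the median). *Tfcp2l1* (0.25 and 0.43) and *Esrrb* (0.13 and 0.21) lie right of the grey bars in both panels, and *Klf2* lies right of them in DMSO and left of its tick in GSK-J4.

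The GSK-J4 log2 ratio without AA was subtracted from that with AA. The nearest genes had median differences of 0.02 to 0.06 over the 9 factors. *Klf2* had a difference of -0.37, beside a median of 0.06 and an SD of 0.13 among its nearest genes. No other factor was outside the 5th to 95th percentile of its nearest genes. *Klf4* had 0.23, *Prdm14* and *Tfcp2l1* 0.18 each and *Sox2* 0.14. *Nanog* and *Pou5f1* had 0.02 and 0.03. Over all 8972 genes kept in both comparisons the median size of this difference, regardless of sign, was 0.127. An interaction could not be tested with 1 library per condition.

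Lists of genes around the network were set beside the factors, with the medians over all genes of -0.17 without AA and -0.16 with AA as background. The shares of all genes that were lower, 63.0% and 62.2%, or 36.6% and 37.9% at the same total, are the background for the counts below. For counts of genes at least 2-fold lower, the background is 3.50% without AA and 3.38% with AA. The latter shares were not computed at the same total. The partner factors, which bind or act with Oct4 and Nanog, had 9 genes to compare, and all 9 were lower with GSK-J4 in both comparisons, or 8 without AA and 9 with AA when the libraries were scaled to the same total. Of these, 3 were at least 2-fold lower in each comparison, against none at the same total. The list medians were -0.83 and -0.78, or -0.52 and -0.49 at the same total. *Myc*, a growth-promoting factor downstream of LIF, was lowest on average over both comparisons, at 15.3 and 6.49 FPKM without AA and 12.8 and 5.0 with AA. *Nr5a2*, a nuclear receptor that can act on the *Pou5f1* gene, was highest, with log2 ratios of -0.23 and -0.33, and was the gene whose direction depended on the scaling.

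Of the listed enhancer targets of Oct4 and Sox2, 3 had a value, and all 3 were lower in both comparisons, with medians of -0.96 and -0.99, or -0.59 and -0.67 at the same total. *Utf1*, a chromatin factor of undifferentiated cells, was at 167 and 55.2 FPKM without AA and 172 and 49.6 with AA, log2 ratios of -1.58 and -1.77. *Fgf4*, an autocrine growth factor of ESCs, had the highest ratio of the 3 on average, with -0.80 and -0.99. Each of these 3 targets thus had a lower log2 ratio than each of the 9 factors in both comparisons. Unlike the factors, the targets and the other listed genes were not set beside genes of similar expression. The genes nearest to *Nanog*, at 162 FPKM in PBS+DMSO, had median log2 ratios of -0.62 without AA and -0.56 with AA. Those nearest to *Tfcp2l1*, at 26.6 FPKM, had -0.35 and -0.41.

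Signalling components differed among themselves. In the LIF and Stat3 list, 5 of 9 genes were lower without AA and 6 of 8 with AA, with medians of -0.21 and -0.26. At least 2-fold lower were *Pim1* (-1.13) without AA and its relative *Pim3* (-1.09) with AA. Each was just short of that mark in the other comparison, *Pim1* at -0.99 with AA and *Pim3* at -0.93 without AA. At the same total 3 and 4 genes were lower, none of them at least 2-fold, and the medians were 0.17 and 0.05. *Pim1*, a kinase gene induced by Stat3, was the lowest on average, at 34.1 and 15 FPKM without AA and 40.3 and 19.8 with AA. *Lif* itself, the ligand, was at 3.71 and 3.79 FPKM without AA and 4.14 and 6.51 with AA. In the Wnt and GSK3 list, 4 of 5 genes were lower without AA and 5 of 6 with AA, with medians of -0.39 and -0.38, or -0.00 and -0.06 at the same total. Of the 5 genes in both comparisons, *Tcf7l1*, a repressor of the naive network, was the lowest, with -0.85 and -0.79. *Gsk3b*, a kinase of the complex that degrades β-catenin, was the highest, with 0.13 and 0.18.

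The regulators of exit from the naive state had 6 of 8 genes lower in both comparisons, with medians of -0.69 and -0.36. At the same total 5 of 8 were lower in both, with medians of -0.31 and -0.03. *Otx2*, which drives the transition to the formative state, was at 16.6 and 4.4 FPKM without AA and 12.2 and 3.93 with AA, log2 ratios of -1.70 and -1.42. *Flcn*, a lysosomal regulator that promotes exit, was at 18.5 and 27.3 FPKM and at 19.9 and 28.0, log2 ratios of 0.54 and 0.47. Exit regulators were therefore found on both sides of the factors.

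Other members of the gene families of the factors were spread around 0. Of these, 14 of 26 were lower without AA and 12 of 24 with AA, and the medians were -0.07 and -0.02, or 0.18 and 0.23 at the same total. *Pou4f2*, a neuronal POU factor, was the lowest, with log2 ratios of -1.51 and -1.52, and *Tbx4*, a limb T-box factor, the highest, with 1.26 and 0.94 from an FPKM of 0.566 and 0.158 in the DMSO libraries.

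**Figure D4:**
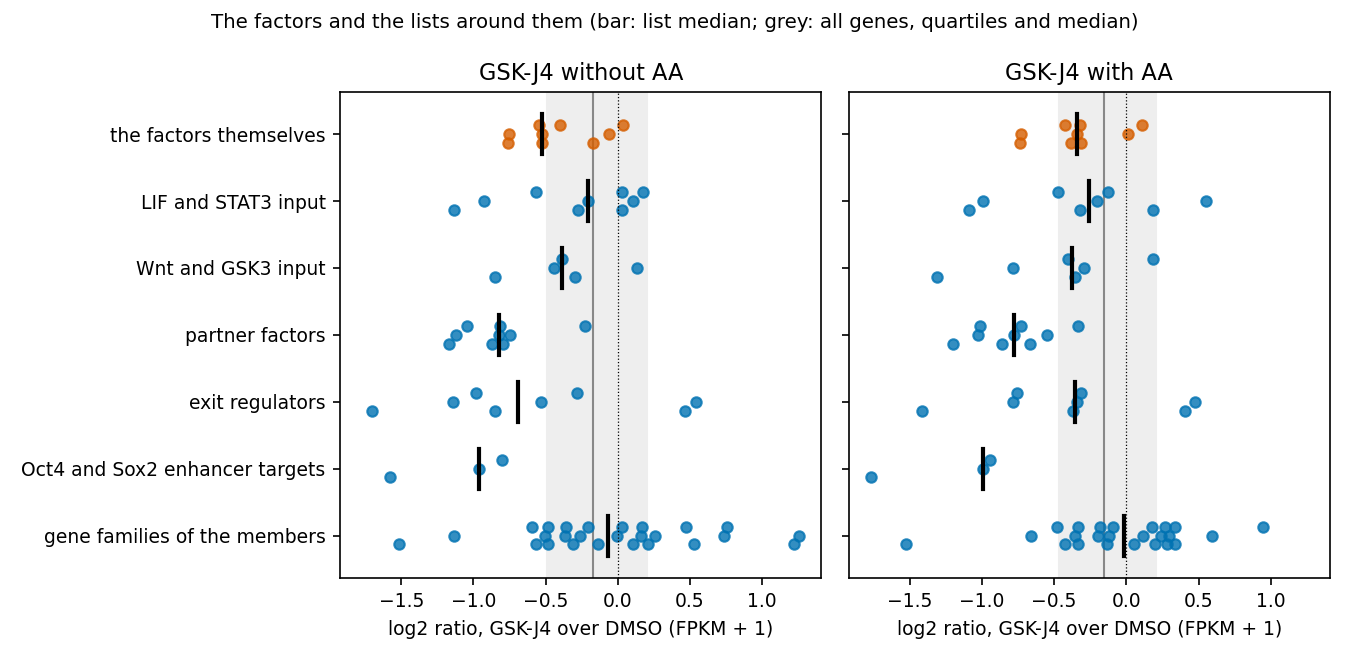
log2 ratios of GSK-J4 over DMSO for the factors (orange) and for the genes of the lists around them (blue), without AA and with AA, 1 point per gene. Black bars mark list medians and the grey band the quartiles of all genes, and the targets (medians of -0.96 and -0.99) and partner factors (-0.83 and -0.78) lie left of the factors (-0.52 and -0.34).

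The profile over the 4 libraries was compared between genes after centring each gene's log2(FPKM + 1), among 4344 other genes with a mean FPKM of at least 10. The gene closest to *Nanog* was *Pou5f1*, with a root mean square difference of 0.0102. *Nanog* ranked 5 for *Pou5f1*, whose closest gene was *Rad23b*, at 0.00329. Close profiles were common, since 871 and 811 genes were within 0.1 of *Nanog* and *Pou5f1*. *Sox2* was closest to *Ccnyl1*, *Klf4* to *2610507B11Rik*, *Klf5* to *Igbp1*, *Esrrb* to *Arpc1b*, *Klf2* to *Rce1* and *Prdm14* to *Nat10*, at differences of at most 0.0163. *Tfcp2l1* was the most apart, with its closest gene, *Ankfy1*, at 0.0415 and 27 genes within 0.1. These are descriptions over 4 libraries.

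Total FPKM over all genes ran from 271205 to 360621, lower in both GSK-J4 libraries, and 8610 to 8981 genes had an FPKM of at least 1. The number of reads behind each library is unknown, so no counting error is given. The label of ESCs was checked against markers. Of 7 further ESC markers, 5 had a value, with summed levels between 361 and 854 FPKM, the lowest in AA+GSK-J4, though *Zfp42* had a failed estimate. All 5 were lower with GSK-J4 in both comparisons, also at the same total. Of all genes, 63.0% and 62.2% were lower, or 36.6% and 37.9% at the same total. The marker *Tdgf1* alone made up 525 of the 854 FPKM in PBS+DMSO and 187 of the 361 in AA+GSK-J4. The markers were not set beside genes of similar expression. Of 9 feeder fibroblast markers, 4 had a value, and their sum was 14.8 and 12.7 FPKM in the DMSO libraries and 17.4 and 17.5 in the GSK-J4 libraries. Single markers of endoderm, trophoblast, mesoderm and neural cells had values, each below 2.1 FPKM in every library. The other markers of these lists were not analysed here, and the part of these cells in the results above was not tested.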

How the data were processed

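RNA-Seq of 4 libraries, 1 per condition, was analysed. The study's methods describe single-end reads from which duplicates were removed, a step that limits the level of the most highly expressed genes, such as *Pou5f1*, and the use of TopHat2 and Cufflinks2. The submitters' processing notes name mm10. The authors deposited FPKM values per coding sequence group in 2 tables, one comparing GSK-J4 with DMSO in PBS and one in AA. Settings are not given in the sources used here. The same tables hold the authors' fold changes, p-values and q-values, which were not used beyond a check of scale: the FPKM columns are headed log10 but hold linear values (largest log2 difference from the deposited fold change 0.00417). One library's sample label in the rows of the AA table spells DMSO differently and was read as AA+DMSO.

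FPKM of a gene's coding sequence groups were added, leaving out 157 genes with a failed estimate (9779 left). Ratios are log2(FPKM + 1), which understates differences of weakly expressed genes, over genes with FPKM of at least 1 in either library. A 2-fold difference was the mark for counts. Whole reads could not be recovered from the FPKM steps, so depth is unknown. With 1 library per condition no test was made. Named genes were the 10 factors, their closest gene by profile, and the lowest and highest gene of each list by mean GSK-J4 ratio over genes compared in both media. *Slc2a3*, *Sox2ot*, *Gm19553*, *Pim3*, *Zfp42* and *Tdgf1* fall outside this rule and were named after values were seen. The factors and lists were chosen with earlier results of these data known. The ratio script was checked on simulated data with planted changes larger than any difference found for the factors. That check does not cover differences of their size. Alternatives covered pseudocounts, FPKM minimum, fold, scaling and number of nearest genes. Figures were drawn with matplotlib 3.10.9, and values were computed in Python 3.11.15 with pandas 2.3.3, numpy 2.4.6 and scipy 1.17.1.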

Additional observations from a re-analysis of the deposited data

Results flagged for a closer look

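Results of 5 factors had opposite signs in the 2 settings, each from 1 library per condition, and the differences were not tested. The log2 ratio of AA over PBS was below 0 in DMSO and above 0 in GSK-J4 for *Sox2* (-0.06 and 0.08, difference 0.14), *Klf4* (-0.11 and 0.12, difference 0.23) and *Prdm14* (-0.16 and 0.03, difference 0.18). For *Klf2* it was above 0 in DMSO and below 0 in GSK-J4 (0.16 and -0.21, difference -0.37). The log2 ratio of GSK-J4 over DMSO was below 0 without AA and above 0 with AA for *Tfcp2l1* (-0.18 and 0.01, difference 0.18). The signs were no longer opposite for *Sox2* at the same total FPKM (0.01 in DMSO), nor for *Tfcp2l1* at the upper quartile (0.09 without AA) and at the same total (0.20 without AA). The SD of these differences among the 300 nearest genes was between 0.12 and 0.16 for *Sox2*, *Klf2*, *Klf4* and *Tfcp2l1*, and 0.35 for *Prdm14*.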

How the results depend on the processing

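No paired analysis was possible because each condition holds 1 library, and for the same reason no library could be left out. Among alternative values of the counts and medians over the factors, 151 stayed within the limits set for a change and 9 moved. The limit was a difference of 0.127 for medians and a ratio of 1.5 for counts above 0. At the same total, 6 in place of 8 factors lower without AA, and 5 in place of 7 with AA, were therefore not called moved. A 4-fold mark could not change the counts that were 0 at 2-fold. The median GSK-J4 ratio without AA was -0.39 with a pseudocount of 5, -0.35 after centring on the median of all genes, -0.25 after upper quartile scaling and -0.14 at the same total. With AA it was -0.18, -0.12 and -0.046 under those 3 scalings. At a 1.5-fold mark, 2 factors were lower without AA and 2 with AA, against 19.3% and 17.8% of all genes. Of the values for single factors, 58 moved and 662 did not. Under each of the 3 scalings 18 moved, the GSK-J4 log2 ratios of all 9 factors in both comparisons. The FPKM minimums and the choice of coding sequence group could not move a factor's own ratio, nor the counts and median ratios over the factors. Each factor passed every minimum and had 1 group. *Klf2* without AA became 0.11, 0.22 and 0.32 under the 3 scalings, *Tfcp2l1* without AA 0.09 and 0.20 under the last 2, and at the same total *Klf4* and *Esrrb* with AA became 0.01 and 0.02 and *Sox2* with AA in DMSO 0.01. Lower genes among those differing at least 2-fold fell from 41.4% and 45.0% to 20.3% and 22.9% after centring and 15.9% and 18.1% at the upper quartile. The cause was not tested. The difference of each factor from its nearest genes with GSK-J4 kept its sign under every alternative run. The scalings shift a factor and its nearest genes nearly alike, so they could hardly change this difference. For *Nanog* without AA it was -0.13 under each of the 3 scalings. For *Pou5f1* it was -0.19 without AA and -0.20 with AA beside 300 nearest genes. Beside 100 nearest genes it was -0.38 and -0.40.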
